A study of Mus musculus with 10 samples.

Results

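Genes of the extracellular matrix and of its receptors were examined for open chromatin in mouse brain and lung: the collagens, the laminins, the integrin subunits named with a number, and the matrix proteins fibronectin (Fn1), elastin (Eln), fibrillin-1 (Fbn1) and Sparc. A peak, a region where reads of the libraries piled up, was counted as a member when it overlapped such a protein-coding gene or lay within 5000 bp of it, with the nearest gene end deciding between genes. This gave 176 peaks at 56 genes, of 37511 nuclear peaks in all, and the other 24 of the 80 annotated genes had no peak. Among those 24 were Col1a2 and Col3a1, which encode chains of the fibrillar collagens I and III, and Itgb4, the partner of Itga6 in hemidesmosomes. Integrin-binding proteins such as Itgb1bp1 were left out.

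The measurements came from nuclei cut by laser from fresh frozen tissue sections of C57BL/6J mice, an inbred strain, all of them wild type (WT). Chromatin was cut on the slide by the transposase Tn5, which inserts sequencing adapters into accessible DNA (ATAC-seq), and each library held either about 200 nuclei taken as 10 areas or 50 nuclei captured one by one. The groups were brain at 200 nuclei (n = 2), brain at 50 nuclei (n = 2), lung at 200 nuclei (n = 3) and lung at 50 nuclei (n = 3), and age and sex are not given in the labels used here. The labels call the replicates technical, so the p-values below measure the spread between libraries and not between animals. Nuclei were taken at random and pooled, and a smaller share of a cell type cannot be told apart from less open chromatin within each cell.

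Collagens are secreted as trimers. The fibrillar types form the tensile fibres of connective tissue, and type IV forms the sheet of the basement membrane together with laminins, which are trimers of an alpha, a beta and a gamma chain. Integrins, pairs of an alpha and a beta subunit in the cell membrane, bind these proteins and link them to the cytoskeleton. Lung tissue is rich in elastic fibres and in the basement membrane shared by alveolar epithelium and capillaries, whereas the adult brain holds its laminins and collagen IV mainly around vessels and at its surface.

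Levels are given as reads per 1000000 nuclear peak reads (RPM), which leaves mitochondrial reads out. Nuclear peak reads numbered 319307 to 465489 in the 4 brain libraries and 340697 to 3075377 in the 6 lung libraries, so that a single read was worth 2.15 to 3.13 RPM in brain and 0.325 to 2.94 RPM in lung. A count of 0 allows up to 3 reads, which is 6.44 to 9.40 RPM in a brain library and 0.975 to 8.81 RPM in a lung library, counting error only. Brain libraries gave 93.4% to 95.8% of their peak reads to mitochondrial DNA, against 24.7% to 58.0% in lung libraries. Lung 50-nuclei replicates 2 and 3 stood apart, with a read at 104 and 80 of the 176 member peaks, against 136 to 175 in the other libraries; over all nuclear peaks they reached 60.9% and 56.1%, against 86.2% to 97.6%.

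Of the member genes with a peak, 37 matched the RefSeq promoter table (GRCm38.p6, the assembly of mm10), which gives strand and start sites, and 19 did not. The stretches of 250 bases upstream of the start are shown for 3 genes whose start-site peak is described below: Itga1, whose start-site peak was lower in brain, and Itgb1 and Col16a1, which were open in both tissues. They run 5′ to 3′ along the gene, at chromosome 13:115101965-115102214 (minus strand) for Itga1, 8:128685404-128685653 (plus strand) for Itgb1 and 4:130047590-130047839 (plus strand) for Col16a1. Capitals mark matches to the motifs searched on both strands.
Itga1: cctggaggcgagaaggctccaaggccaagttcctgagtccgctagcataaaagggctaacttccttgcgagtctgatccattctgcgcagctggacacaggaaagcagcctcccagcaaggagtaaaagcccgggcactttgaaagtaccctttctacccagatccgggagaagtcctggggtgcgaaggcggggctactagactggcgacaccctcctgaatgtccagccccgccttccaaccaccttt
Itgb1: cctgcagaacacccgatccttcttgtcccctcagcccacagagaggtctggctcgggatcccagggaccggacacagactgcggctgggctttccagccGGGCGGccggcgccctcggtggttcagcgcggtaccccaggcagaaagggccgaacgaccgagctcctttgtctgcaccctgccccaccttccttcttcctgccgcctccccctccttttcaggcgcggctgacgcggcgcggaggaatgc
Col16a1: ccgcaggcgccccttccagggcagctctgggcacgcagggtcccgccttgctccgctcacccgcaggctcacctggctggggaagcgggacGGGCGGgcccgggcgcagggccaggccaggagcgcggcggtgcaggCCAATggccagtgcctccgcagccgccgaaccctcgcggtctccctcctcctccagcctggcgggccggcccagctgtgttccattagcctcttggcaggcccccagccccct

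The motif letters were TGANTCA for AP-1, CCGGAA for ETS factors, GGGCGG for the GC box, TATAAA for the TATA box, and for the remaining box the letters of its name, CCAAT, and no matches overlapped in the 3 sequences. Itga1 held none of these letters, Itgb1 held 1 GC box, and Col16a1 held 1 GC box and 1 CCAAT box. Of 32851 upstream stretches of the same length, 6.75% held the AP-1 letters, 12% those of ETS factors, 32.7% a GC box, 33.8% a CCAAT box and 12.4% a TATA box.

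Most member peaks lay inside genes. By position, 126 of the 176 (71.6%) were in gene bodies, 28 (15.9%) had their centre within 1000 bp of a start site, 14 were within that distance of an end of a gene whose start is not given in the table, and 8 flanked a gene. Over all nuclear peaks tested, 30.6% lay in gene bodies and 33.3% at start sites. Several genes held many peaks, with 13 at Col4a2, 10 at Itga9 and 9 each at Col4a1 and Itgb6. The members had a median width of 143.5 bp, against 164 bp for all nuclear peaks, and 4 of them had a second protein-coding gene in reach.

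In brain as compared with lung, 4 member peaks were higher and 10 were lower. The higher ones lay at Col9a1, Lamb1, Itgb5 and Itgb8, and the lower ones at Itga1 and Itga2 (2 peaks each), Itga3, Itga9, Itgb6, Lama5, Col4a3 and Eln (edgeR quasi-likelihood test averaged over both sizes, Benjamini-Hochberg adjusted p at 0.05 over 37466 peaks). All 176 members passed the read filter. The called share was 7.95%, against 10.2% of all peaks tested. It was 2.27% for higher peaks, against 5.76% of all peaks, and 5.68% for lower peaks, against 4.39%. The members as a whole were thus called no more often than peaks in general.

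**Figure D1:**
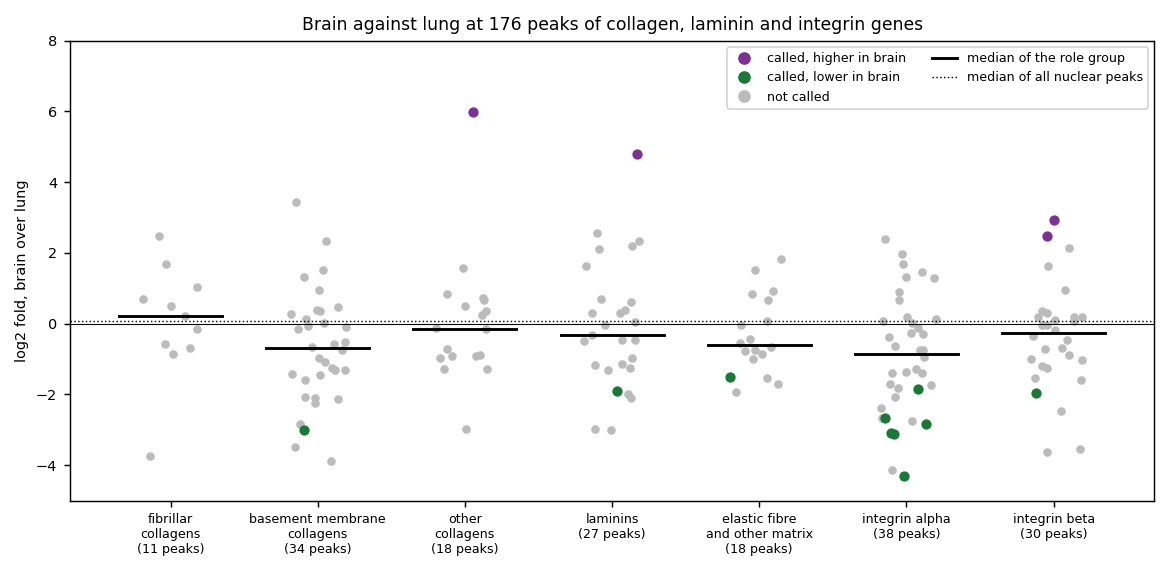
The log2 fold of brain over lung is plotted for each of the 176 member peaks by role group. Filled purple points are called higher in brain, green points called lower in brain, grey points are not called, solid bars are group medians and the dotted line is the median of all nuclear peaks. Of the 10 lower peaks, 6 are at integrin alpha subunits, and no peak of a fibrillar collagen is coloured.

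The median log2 fold was -0.48 over the 176 members and 0.07 over all nuclear peaks tested, with 67 members above 0 and 109 below. Position went with it: in gene bodies the median was -0.74 for 126 members and -0.35 for 11480 peaks of any gene, and at start sites -0.11 for 28 members and 0.37 for 12462 peaks. The ranges of the tissues did not overlap, with brain higher, at 12 of 176 members (6.82%; 8.4% of all nuclear peaks), and with brain lower at 11 (6.25%; 4.93%). Without lung 50-nuclei replicates 2 and 3, 40 members were called (9 higher, 31 lower in brain), or 22.7%, against 22.3% of all peaks. The 40 included all 14.

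The number of calls moved with the libraries in the fit, over all peaks as well as over the members. Omitting 1 brain library leaves its group with a single library, assumed to vary like the other groups. Without brain 200-nuclei replicate 1, 3 members were called (1.7%; 4.23% of all peaks), and without brain 200-nuclei replicate 2, 5 (2.84%; 5.31%). Without brain 50-nuclei replicate 1 there were 5 (2.84%; 4.76%) and without brain 50-nuclei replicate 2 there were 6 (3.41%; 4.32%). The median log2 fold over members was -0.42 to -0.73 in these 4 fits, against -0.48 with all libraries. Why fewer members were called was not tested. Without lung 200-nuclei replicate 2 or 3, 8 members were called (4.55% in both; 6.02% and 5.47% of all peaks). Without lung 50-nuclei replicate 1, 27 were called (15 higher, 12 lower in brain; 15.3%, against 18.8% of all peaks), and without lung 50-nuclei replicate 3, 29 (8 higher, 21 lower; 16.5%, against 17.5%). The calls at Itga3, at the Itga1 start and at Col9a1 held in all 10 fits that left out a library. With edgeR's default filter, which left the Lamb1 and Col9a1 peaks untested, the calls ended at Col4a3 (adjusted p = 0.0725), Eln (0.0763), Lama5 (0.0655) and the Itga2 peak with the higher p (0.0504), and with DESeq2's size factors the call at Eln ended (0.0522). The default filter used read totals that include mitochondrial reads, 5519395 to 10973796 in brain libraries and 573596 to 4083252 in lung libraries. It therefore asked for more reads in a brain library than in a lung library.

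**Figure D2:**
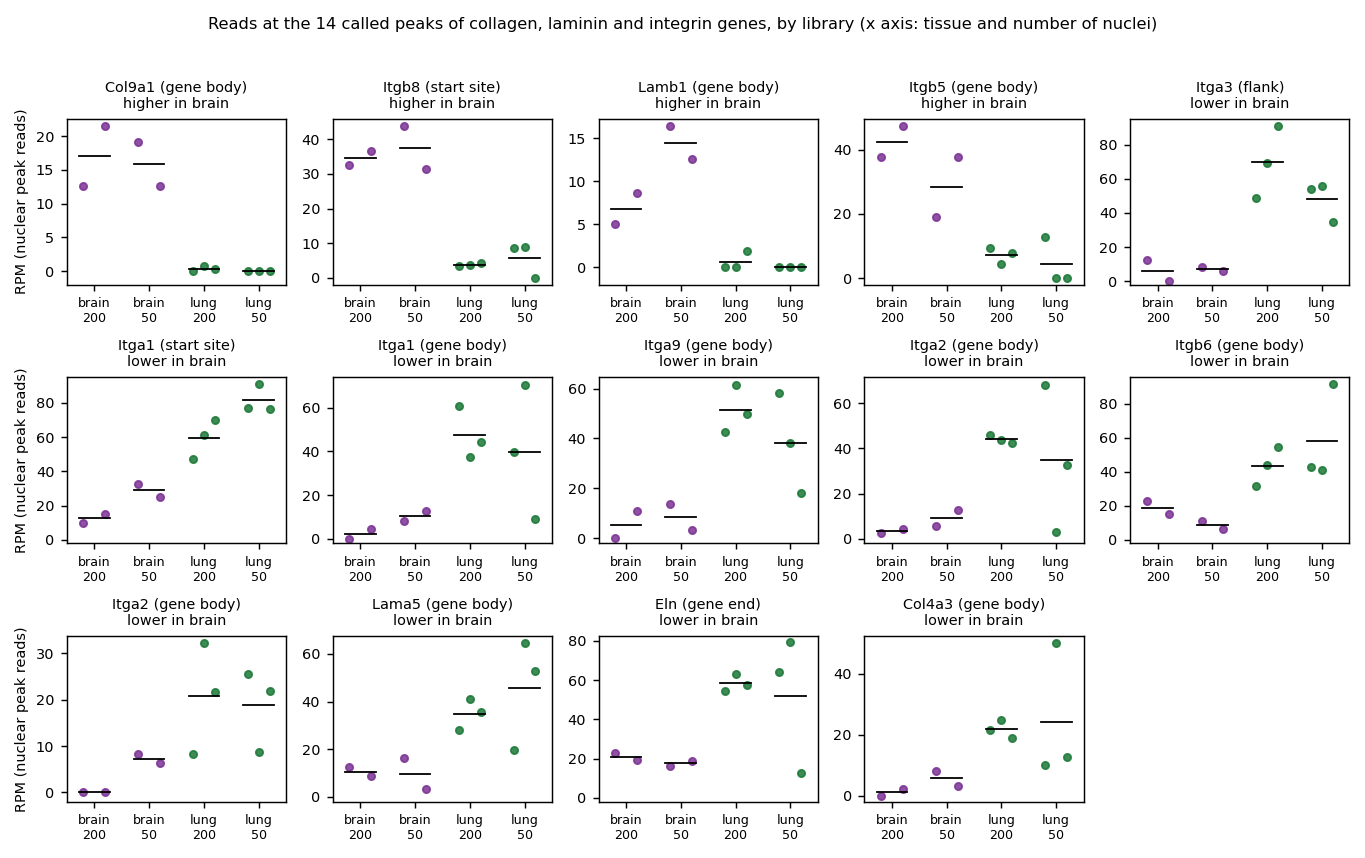
RPM is plotted for each library at the 14 called peaks, 1 panel per peak with its own linear scale, with groups along the x axis by tissue and number of nuclei. Points are libraries, purple for brain and green for lung, and bars are group means. Brain points lie above all lung points in the 4 panels of higher peaks, while in 3 of the 10 panels of lower peaks (Eln, Itga1 gene body and Itga2 at the peak with the lower p) a lung library lies at or below the level of brain libraries.

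The receptors come first, since integrin alpha subunits held 6 of the 10 lower peaks. Of their 38 peaks at 11 genes, 6 were lower in brain (15.8%; 4.39% of all peaks) and none was higher (5.76% of all peaks). The median log2 fold was -0.85, against 0.07 over all peaks. Summed over the 38 peaks, the level was 396 to 624 RPM in brain libraries and 626 to 851 RPM in lung libraries, so the ranges lay next to each other without overlap.

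The lowest p among all members belonged to a peak near Itga3, the alpha chain of a laminin receptor of epithelia. It lay at 11:95079469-95079894 (mm10), 2838 bp upstream of the gene's start. It had 12.5 and 0 RPM in brain at 200 nuclei and 8.21 and 6.26 RPM in brain at 50 nuclei, against 48.8, 69.5 and 90.7 RPM in lung at 200 nuclei and 54.0, 55.8 and 34.7 RPM in lung at 50 nuclei. Every lung library lay above every brain library. The log2 fold was -3.11 ± 0.59 (SE, edgeR adjusted p = 4.83e-04). The fold was -2.59 without brain 200-nuclei replicate 2 and -5.89 without brain 200-nuclei replicate 1, which leaves that group at 0 and the fold to the prior count. At the Itga3 start itself 2 peaks gave log2 folds of 0.08 and -0.39, neither of them called.

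Itga1 and Itga2 encode the alpha chains of the collagen receptors alpha1beta1 and alpha2beta1 and lie next to each other on chromosome 13. The peak over the Itga1 start (13:115101634-115102138), which covers 174 of the 250 bases printed above, had 10.0 and 15.0 RPM in brain at 200 nuclei and 32.8 and 25.1 RPM at 50 nuclei, against 47.1, 61.5 and 69.9 RPM in lung at 200 nuclei and 76.8, 91.0 and 76.7 RPM at 50 nuclei. All 6 lung libraries exceeded all 4 brain libraries (log2 fold -1.84 ± 0.42, SE, edgeR adjusted p = 0.00299). A peak in the gene body (13:114987220-114987575) had 0 and 4.30 RPM in brain at 200 nuclei and 8.21 and 12.5 RPM at 50 nuclei, against 61.0, 37.3 and 44.5 RPM in lung at 200 nuclei and 39.8, 70.4 and 9.13 RPM at 50 nuclei. Here lung 50-nuclei replicate 3 fell among the brain values (log2 fold -3.09 ± 0.72, edgeR adjusted p = 0.00371). Without brain 200-nuclei replicate 1 the fold was -2.64 (adjusted p = 0.0525), and without brain 200-nuclei replicate 2, which leaves that group at 0, it was -5.20 (adjusted p = 0.0123). A narrower peak less than 1000 bp away, at 13:114987772-114987954, was not called (-4.13 ± 1.53, adjusted p = 0.0776; 0.0440 with DESeq2), and neighbouring peaks of this kind are not independent. Without lung 50-nuclei replicate 2 the narrower peak was called (log2 fold -4.42, edgeR adjusted p = 0.0292), and its fold was -4.22 without replicates 2 and 3.

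At Itga2, both called peaks were in the gene body. The one at 13:114896874-114897253 had 2.51 and 4.30 RPM in brain at 200 nuclei and 5.47 and 12.5 RPM at 50 nuclei, against 46.0, 43.9 and 42.3 RPM in lung at 200 nuclei and 68.2, 2.94 and 32.9 RPM at 50 nuclei. The single low lung value was that of lung 50-nuclei replicate 2. The log2 fold was -2.84 ± 0.73 (edgeR adjusted p = 0.00861), and the call ended without brain 200-nuclei replicate 1 (adjusted p = 0.0777), brain 200-nuclei replicate 2 (0.0507) or brain 50-nuclei replicate 1 (0.0727), at log2 folds of -2.59 to -3.07. Without lung 50-nuclei replicate 1 the fold was -2.19 (adjusted p = 0.0398). The other, at 13:114885197-114885466, held 5 reads in all of brain, none of them at 200 nuclei, and 159 reads in lung. Its log2 fold of -4.32 ± 1.33 (edgeR adjusted p = 0.0308) depends on the prior count of the fit, since a whole group was at 0, and the call ended without any 1 of the brain libraries or without lung 200-nuclei replicate 2 or 3 (log2 folds -4.06 to -4.46, adjusted p 0.0851 to 0.142). Read totals of nuclear peaks were 1549035 in brain and 7837991 in lung, which made the pooled read rate of this peak 0.159 of that in lung (95% exact interval 0.0510 to 0.379, counting error only).

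Together Itga1 and Itga2 had 14 peaks over 263 kb, of which 4 were lower in brain (4.39% of all peaks) and none was higher (5.76% of all peaks). Their median log2 fold was -1.83, and 12 of the 14 were below 0. Summed over its 7 peaks, Itga1 had 60.2 and 38.7 RPM in brain at 200 nuclei and 79.4 and 59.5 RPM at 50 nuclei, against 175.1, 183 and 173 RPM in lung at 200 nuclei and 149, 220.1 and 126 RPM at 50 nuclei. Itga2, also with 7 peaks, had 30.1 and 27.9 RPM in brain at 200 nuclei and 101.3 and 94.0 RPM at 50 nuclei. In lung its sums were 110.3, 136.9 and 133.0 RPM at 200 nuclei and 146.4, 88.1 and 149.7 RPM at 50 nuclei. The Itga2 ranges overlapped. The gene pair of collagen IV, described below, had more peaks over a like span and no call.

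**Figure D3:**
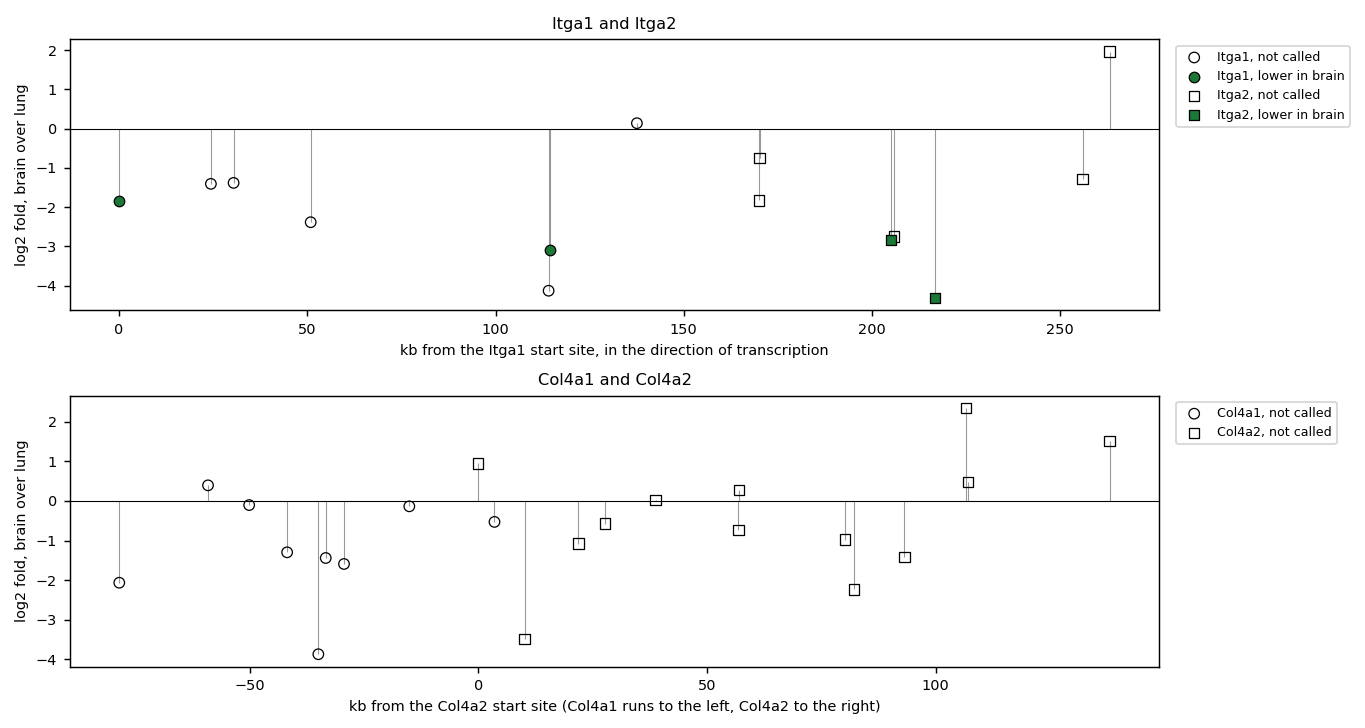
Each symbol is a member peak, placed by its distance in kb from the Itga1 start site in the upper panel (in the direction of transcription) and from the Col4a2 start site in the lower panel. The y axis is the log2 fold of brain over lung, and filled symbols are called lower in brain. The upper panel holds 4 filled symbols among 14 peaks, and the lower panel holds none among 22.

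Itga9, whose integrin binds tenascin C and other matrix proteins, had 1 of 10 peaks called. At 9:118741253-118741630 it had 0 and 10.7 RPM in brain at 200 nuclei and 13.7 and 3.13 RPM at 50 nuclei, against 42.7, 61.5 and 49.7 RPM in lung at 200 nuclei and 58.3, 38.2 and 18.3 RPM at 50 nuclei. The tissues did not overlap (log2 fold -2.65 ± 0.66, edgeR adjusted p = 0.00663). The call ended without brain 200-nuclei replicate 1 (-2.19, adjusted p = 0.0707) or brain 50-nuclei replicate 2 (-2.33, adjusted p = 0.0697). Without brain 50-nuclei replicate 1 the fold was -3.36, and without brain 200-nuclei replicate 2, which leaves that group at 0, it was -5.40. The other 2 alpha chains of collagen receptors, Itga10 and Itga11, each had 1 peak, with log2 folds of 2.41 and 0.88 that were not called. The integrin alpha peak with the highest mean RPM, in Itga2b (11:102466970-102467464), which encodes the platelet integrin alphaIIb, was not called either. It had 92.8 and 107 RPM in brain at 200 nuclei and 73.9 and 78.3 RPM at 50 nuclei, against 80.3, 69.5 and 79.7 RPM in lung at 200 nuclei and 64.0, 44.0 and 7.30 RPM at 50 nuclei (log2 fold 0.67 ± 0.36, adjusted p = 0.250), except without lung 50-nuclei replicate 1 (log2 fold 1.20, adjusted p = 0.0331).

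Integrin beta subunits were called in both directions. Of 30 peaks, 2 were higher in brain (6.67%, against 5.76% of all peaks) and 1 was lower (3.33%, against 4.39%). The median log2 fold was -0.26. Itgb8 pairs with alpha v and activates latent TGF-beta, in brain among other tissues. Its only peak, centred 499.5 bp upstream of the start (12:119238682-119238869), had 32.6 and 36.5 RPM in brain at 200 nuclei and 43.8 and 31.3 RPM at 50 nuclei, against 3.32, 3.66 and 4.23 RPM in lung at 200 nuclei and 8.53, 8.81 and 0 RPM at 50 nuclei. Brain was higher in every library (log2 fold 2.92 ± 0.76, edgeR adjusted p = 0.0100). The call ended without brain 200-nuclei replicate 1 (adjusted p = 0.0544) or 2 (0.0662) or brain 50-nuclei replicate 1 (0.0870), while the log2 fold stayed at 2.80 to 2.98.

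Itgb6, a beta chain of epithelia that also pairs with alpha v and activates TGF-beta, went the other way. Its called peak (2:60689017-60689374, gene body) had 22.6 and 15.0 RPM in brain at 200 nuclei and 10.9 and 6.26 RPM at 50 nuclei, against 31.6, 43.9 and 54.3 RPM in lung at 200 nuclei and 42.7, 41.1 and 91.3 RPM at 50 nuclei. No brain library reached the lowest lung library (log2 fold -1.95 ± 0.53, edgeR adjusted p = 0.0130). The call ended without any 1 of the brain libraries or without lung 200-nuclei replicate 3 (log2 folds -1.79 to -2.18, adjusted p up to 0.0958).

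Itgb5, another partner of alpha v, binds vitronectin, and 1 of its 7 peaks was higher in brain. At 16:33860064-33860298, in the gene body, it had 37.6 and 47.3 RPM in brain at 200 nuclei and 19.2 and 37.6 RPM at 50 nuclei, against 9.42, 4.39 and 7.80 RPM in lung at 200 nuclei and 12.8, 0 and 0 RPM at 50 nuclei. Brain exceeded lung in every library (log2 fold 2.47 ± 0.77, edgeR adjusted p = 0.0340), and the call ended without any 1 of the brain libraries or any 1 of the lung 200-nuclei libraries (log2 folds 2.2 to 2.7, adjusted p up to 0.215). Without lung 50-nuclei replicate 1, which leaves that group at 0, the fold was 5.17 (adjusted p = 0.00299), and without lung 50-nuclei replicates 2 and 3 it was 1.75 (adjusted p = 0.00905). Another Itgb5 peak, at 16:33937796-33937939, had a log2 fold of -2.47 ± 1.08 that was not called (adjusted p = 0.140). That peak was called without lung 50-nuclei replicate 3 (log2 fold -2.76, edgeR adjusted p = 0.0146), and its fold was -2.41 without replicates 2 and 3.

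Itgb1, the most widely shared beta chain, had 3 peaks near a start site, none of them called. At 1 of the 3 every brain library lay above every lung library, as at 8.4% of all nuclear peaks. Described here is another, the integrin beta peak with the highest mean RPM, which was open in both tissues. The peak at 8:128685333-128685831, which covers all 250 bases printed above, had 60.2 and 60.2 RPM in brain at 200 nuclei and 60.2 and 28.2 RPM at 50 nuclei, against 82.6, 53.4 and 45.2 RPM in lung at 200 nuclei and 34.1, 96.9 and 21.9 RPM at 50 nuclei. At this peak the ranges overlapped throughout. The log2 fold was -0.05 ± 0.40 (adjusted p = 0.958), and its sign turned with DESeq2's size factors, the default filter, DESeq2 and some left-out libraries.

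Among laminins, all 11 genes had a peak. Of 27 peaks, 1 was higher in brain (3.7%, against 5.76% of all peaks) and 1 was lower (3.7%, against 4.39%). Lamb1 encodes a laminin beta chain. Its only peak (12:31323546-31323636, gene body) was narrow, at 90 bp, and held 16 reads in brain and 6 in lung. It had 5.01 and 8.59 RPM in brain at 200 nuclei and 16.4 and 12.5 RPM at 50 nuclei, against 0, 0 and 1.95 RPM in lung at 200 nuclei and 0 RPM in each of the 3 lung libraries at 50 nuclei. All 6 lung reads came from lung 200-nuclei replicate 3. The log2 fold of 4.79 ± 1.34 (edgeR adjusted p = 0.0180) depends on the prior count, because lung at 50 nuclei was at 0, and the pooled read rate was 13.5 times that in lung (95% exact interval 5.02 to 42.1, counting error only). The call ended without any 1 of the brain libraries or without lung 200-nuclei replicate 2 (log2 folds 4.55 to 5.01, adjusted p up to 0.0890), and the fold was 5.82 without lung 200-nuclei replicate 3.

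Lama5, the alpha chain of laminin-511 and laminin-521 of mature basement membranes, was lower in brain at 1 of its 5 peaks (2:180218808-180219002, gene body). It had 12.5 and 8.59 RPM in brain at 200 nuclei and 16.4 and 3.13 RPM at 50 nuclei, against 28.3, 41.0 and 35.4 RPM in lung at 200 nuclei and 19.9, 64.6 and 52.9 RPM at 50 nuclei. Every lung library was higher (log2 fold -1.90 ± 0.61, edgeR adjusted p = 0.0389), and all 5 Lama5 peaks had a log2 fold below 0. The call ended without any 1 of the brain libraries or any 1 of the lung 200-nuclei libraries (adjusted p up to 0.217), at log2 folds of -1.55 to -2.03 and, without brain 50-nuclei replicate 1, -2.72.

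Neither the strongest laminin peak nor the next by p was called. The gene-end peak of Lamc1 (1:153332737-153333278), the gamma chain shared by most laminins, had 47.6 and 77.3 RPM in brain at 200 nuclei and 73.9 and 87.7 RPM at 50 nuclei, against 44.3, 57.1 and 60.8 RPM in lung at 200 nuclei and 55.4, 14.7 and 45.6 RPM at 50 nuclei (log2 fold 0.61 ± 0.37, adjusted p = 0.301). At Lama3, a chain of epithelial laminin-332, a gene-body peak on chromosome 18 (12440551-12440718) had 30.1 and 19.3 RPM in brain at 200 nuclei and 38.3 and 31.3 RPM at 50 nuclei, against 9.42, 16.1 and 7.15 RPM in lung at 200 nuclei and 7.11, 0 and 0 RPM at 50 nuclei. Its ranges did not overlap, and it missed the threshold (log2 fold 2.35 ± 0.81, adjusted p = 0.0558). It was called with DESeq2 (adjusted p = 0.00589), with DESeq2's size factors in edgeR (0.0384), with nuclear totals (0.0485), without lung 50-nuclei replicate 2 (0.0429) or 3 (0.0227) or both (log2 fold 1.67, adjusted p = 0.0237), and without lung 50-nuclei replicate 1, which leaves that group at 0 (log2 fold 4.65, adjusted p = 0.0063).

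Basement membrane collagens had 1 of 34 peaks called, lower in brain (2.94%, against 4.39% of all peaks). It lay at Col4a3, a chain of the alpha3-alpha4-alpha5 network found in kidney glomeruli and alveoli. The peak (1:82603277-82603505, gene body) had 0 and 2.15 RPM in brain at 200 nuclei and 8.21 and 3.13 RPM at 50 nuclei, against 21.6, 24.9 and 18.9 RPM in lung at 200 nuclei and 9.95, 49.9 and 12.8 RPM at 50 nuclei. The tissues did not overlap, on 5 reads in brain and 162 in lung (log2 fold -3.01 ± 1.00, edgeR adjusted p = 0.0459). The call ended without any 1 of 8 libraries, namely those of brain, those of lung at 200 nuclei and lung 50-nuclei replicate 2 (adjusted p up to 0.208). The log2 fold was -2.53 to -3.43 in 7 of those fits and -4.66 without brain 200-nuclei replicate 2, which leaves that group at 0. The neighbouring Col4a4, which encodes the alpha4 chain of the same network, had 1 peak with a log2 fold of -2.14 ± 0.85 (adjusted p = 0.103).

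Col4a1 and Col4a2, which encode the chains of the collagen IV found in nearly all basement membranes, start next to each other on opposite strands of chromosome 8. None of their 22 peaks over 217 kb was called, where 10.2% of all peaks tested were. Of all 37464 nuclear peaks tested, 9408 had an unadjusted p under 0.05 and 17824 a log2 fold below 0. For Col4a1 and Col4a2 these numbers were 6 and 15 of 22. Their shared start (8:11312545-11312920) had 82.7 and 53.7 RPM in brain at 200 nuclei and 49.3 and 34.4 RPM at 50 nuclei, against 6.65, 34.4 and 38.7 RPM in lung at 200 nuclei and 15.6, 41.1 and 34.7 RPM at 50 nuclei. The ranges overlapped (log2 fold 0.95 ± 0.47, adjusted p = 0.200), and without lung 50-nuclei replicates 2 and 3 the peak was called (log2 fold 1.30, adjusted p = 0.0157). Inside Col4a2, the peak with the next lowest p of this group (8:11394839-11395033) had a log2 fold of -2.23 ± 0.76 (adjusted p = 0.0525). It was called with DESeq2 (adjusted p = 0.0329), with nuclear totals (0.0440) and without lung 50-nuclei replicate 1 (0.0176) or 2 (0.0281), and its fold was -1.09 without replicates 2 and 3 (adjusted p = 0.267). Summed over the 9 peaks of Col4a1, levels were 72.7 and 92.4 RPM in brain at 200 nuclei and 106.7 and 72.0 RPM at 50 nuclei, against 123.6, 178.6 and 149.6 RPM in lung at 200 nuclei and 149.3, 179 and 195 RPM at 50 nuclei, with no overlap. Over the 13 peaks of Col4a2 the sums were 147 to 203 RPM in brain libraries and 175 to 255 RPM in lung libraries, with overlap.

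No fibrillar collagen peak was called in the main edgeR fit, where 10.2% of all peaks tested were. Of 11 peaks at 7 genes, 3 had an unadjusted p under 0.05, against 9408 of all 37464 nuclear peaks tested. The median log2 fold of the 11 was 0.22. Col2a1, the main collagen of cartilage, had the group's highest mean level, at 15:97992986-97993186 in the gene body, with 50.1 and 23.6 RPM in brain at 200 nuclei and 35.6 and 56.4 RPM at 50 nuclei, against 8.31, 11.0 and 8.78 RPM in lung at 200 nuclei and 17.1, 0 and 32.9 RPM at 50 nuclei (log2 fold 1.69 ± 0.62, adjusted p = 0.0759). Only lung 50-nuclei replicate 3 reached into the brain range. The peak was called with DESeq2 (adjusted p = 0.0206), without that library (0.00687) and without lung 50-nuclei replicates 2 and 3 (0.00714). Col24a1 had a log2 fold of -3.74 ± 1.27 (3:145471222-145471414, adjusted p = 0.0534), on 2 reads in brain and 113 in lung. The peak was called with a replicate block in edgeR (log2 fold -4.50, adjusted p = 0.0341). It was called with DESeq2 (adjusted p = 0.0359), with nuclear totals (0.0415), without lung 50-nuclei replicate 3 (0.00247) and without replicates 2 and 3 of lung at 50 nuclei (0.00878), and single libraries moved its fold between -2.90, without lung 50-nuclei replicate 2, and -5.57, without brain 50-nuclei replicate 2. Col1a1, which encodes a chain of the abundant collagen I, had a peak at a gene end and one in the gene body, with log2 folds of 0.50 and -0.14 that were not called.

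Of the 18 peaks at other collagens, the one at Col9a1 was called, higher in brain (5.56%, against 5.76% of all peaks). Col9a1 encodes a chain of the fibril-associated collagen IX, known from cartilage. At 1:24230530-24230642, in the gene body, it had 12.5 and 21.5 RPM in brain at 200 nuclei and 19.2 and 12.5 RPM at 50 nuclei, against 0, 0.732 and 0.325 RPM in lung at 200 nuclei and 0 RPM in each of the 3 lung libraries at 50 nuclei. The 26 reads of brain stood against 2 in lung, although lung had the larger total. The read rate in brain was 65.8 times that in lung (95% exact interval 16.5 to 572, counting error only), and the fit gave a log2 fold of 6.00 ± 1.30 (edgeR adjusted p = 0.00206), which depends on the prior count because lung at 50 nuclei was at 0. Col16a1, a fibril-associated collagen, was open at its start in both tissues (4:130047670-130047926), with 42.6 and 45.1 RPM in brain at 200 nuclei and 41.0 and 18.8 RPM at 50 nuclei, against 18.8, 27.8 and 20.2 RPM in lung at 200 nuclei and 32.7, 52.8 and 47.5 RPM at 50 nuclei (log2 fold 0.24 ± 0.47, adjusted p = 0.786). Col26a1 had non-overlapping ranges, with brain higher, and no call (5:136791019-136791165, log2 fold 1.57 ± 0.75, adjusted p = 0.182; 0.0425 without lung 50-nuclei replicate 3).

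Of the 18 peaks at Eln, Fbn1, Fn1 and Sparc, 1 was called, lower in brain (5.56%, against 4.39% of all peaks). It lay at Eln, which encodes the core protein of elastic fibres. The peak was centred 228.5 bp from a gene end (5:134747388-134747805) and had 22.6 and 19.3 RPM in brain at 200 nuclei and 16.4 and 18.8 RPM at 50 nuclei, against 54.3, 63.0 and 57.6 RPM in lung at 200 nuclei and 64.0, 79.2 and 12.8 RPM at 50 nuclei. Lung 50-nuclei replicate 3 lay below all brain libraries and the other 5 lung libraries above them (log2 fold -1.51 ± 0.49, edgeR adjusted p = 0.0424). Without that library the adjusted p was 7.30e-04, and without any 1 of the other 9 the call ended (adjusted p up to 0.169), while the log2 fold stayed at -1.24 to -1.56. Fn1 had a single peak (log2 fold -0.74), the 6 peaks of Sparc ranged from -1.69 to 1.84, and the lowest p at Fbn1, the scaffold of microfibrils, went with -1.92 ± 0.89 (2:125349282-125349506, adjusted p = 0.167).

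Taken by size, no member was called between brain and lung at 50 nuclei with edgeR, where 1.41% of all peaks were called. At an unadjusted p under 0.05 there were 28 members (15.9%), against 17.1% of all peaks, and DESeq2 called 5 (2.84%), against 4.6%. At 200 nuclei edgeR called 3 members (1.70%), against 2.24% of all peaks. All 3 were lower in brain, against 1.24% of all peaks in that direction, and they were the peaks at Itga3 (log2 fold -3.63 ± 0.83, adjusted p = 0.0124), the Itga1 gene body (-4.39 ± 1.10, adjusted p = 0.0222) and the Itga1 start (-2.32 ± 0.61, adjusted p = 0.0319). The log2 folds at the 2 sizes, which share no library, had the same sign at 118 of 176 members (67.0%), against 70.5% of all nuclear peaks. The median over members was -0.78 at 200 nuclei and -0.03 at 50 nuclei, against -0.11 and 0.25 over all nuclear peaks.

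Between 200 and 50 nuclei no member was called in either tissue, nor did any pass the test of whether brain against lung depended on size. With edgeR the called share of all peaks was 0% in each of these 3 comparisons, and with DESeq2 it was 0.00801% in lung and 0% in brain and for the dependence, with no member among them. At an unadjusted p under 0.05 the members numbered 10 in lung (5.68%; 8.2% of all peaks), 2 in brain (1.14%; 1.14% of all peaks) and 10 for the dependence (5.68%; 4.15% of all peaks). Because areas were captured at 200 nuclei and single nuclei at 50, size and capture cannot be told apart.

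**Figure D4:**
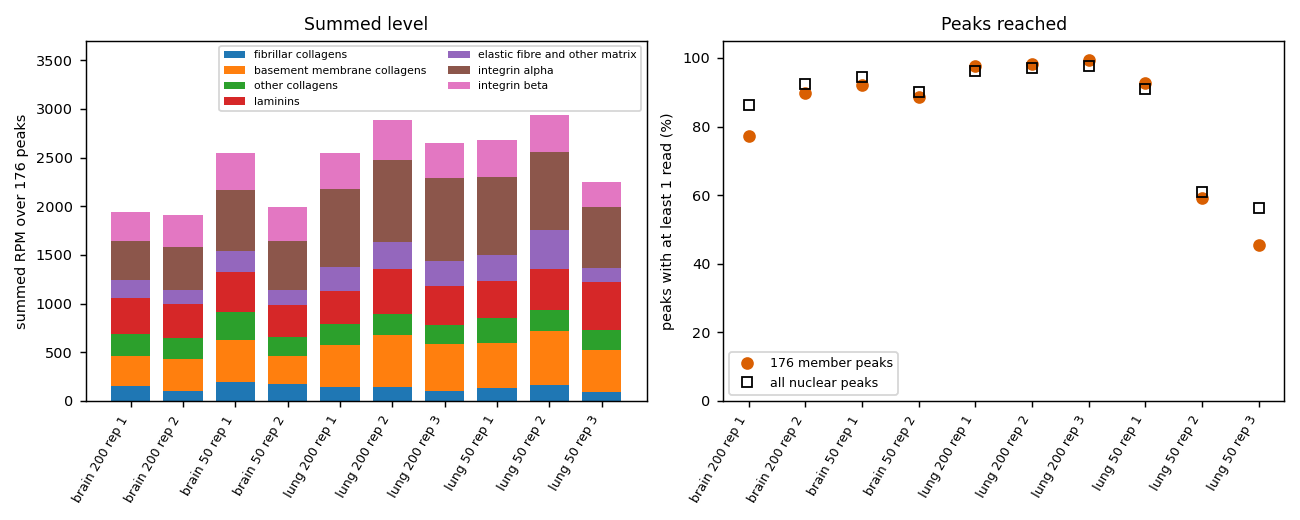
The left panel stacks the summed RPM of the 176 member peaks by role group for each library, and the right panel gives the percentage of peaks reached by a read, for members (filled circles) and for all 37511 nuclear peaks (open squares). Summed levels run from 1908 to 2545 RPM in brain and 2251 to 2935 RPM in lung, and lung 50-nuclei replicates 2 and 3 reach the fewest peaks.

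Summed over all 176 peaks, levels were 1941 and 1908 RPM in brain at 200 nuclei and 2545 and 1989 RPM at 50 nuclei, against 2546, 2885 and 2655 RPM in lung at 200 nuclei and 2676, 2935 and 2251 RPM at 50 nuclei. Brain 50-nuclei replicate 1 was above the lowest lung library, and the other 3 brain libraries were below all of lung. By group, fibrillar collagens summed to 98.8 to 194 RPM in brain and 89.5 to 161 RPM in lung, and laminins to 323 to 410 RPM in brain and 335 to 489 RPM in lung, both with overlap.

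Partners of these genes gave calls in both directions as well. Of 154 peaks at 52 of 73 listed genes of matrix assembly, collagen processing and integrin adhesion, 5 were higher and 12 lower in brain. The median log2 fold was -0.24. Beside these counts and those of each list below, 5.76% of all peaks tested were higher and 4.39% lower in brain. Adhesion proteins that bind integrin tails or the complexes there had 1 of 59 peaks higher and 7 lower. Among them, Parvb, which encodes beta-parvin, had a log2 fold of -2.52 ± 0.34 (15:84235514-84236019, edgeR adjusted p = 6.10e-06), and Fermt2, which encodes kindlin-2, -2.73 ± 0.65 (14:45463663-45463946, adjusted p = 0.00454). Basement membrane and matrix partners had 1 of 51 higher, at the laminin-binding nidogen Nid1 (log2 fold 2.54 ± 0.77, adjusted p = 0.0286), and 4 lower, at Bgn, Emilin1, Fbln5 and Ltbp4. Collagen processing had 2 of 40 higher, at Bmp1 and Mmp2, and 1 lower, at Lox, the enzyme that crosslinks collagen and elastin (-3.74 ± 1.07, adjusted p = 0.0195). The other integrin subunits had 1 of 4 higher, at Itgal.

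Some lists of cell type markers differed between the tissues and others did not, and their part in the differences above was not tested. Over all peaks tested, 5.76% were higher and 4.39% lower in brain. Neuron genes had 9 of 14 peaks higher in brain and none lower (279 to 376 RPM summed in brain libraries, 21.9 to 99.8 RPM in lung libraries). Oligodendrocyte genes had 4 of 13 higher (256 to 397 RPM in brain, 129 to 287 RPM in lung), and astrocyte genes none of 4 called (27.4 to 70.9 RPM in brain, 18.5 to 42.1 RPM in lung). Endothelium had 24 of 55 lower in brain and none higher (532 to 733 RPM in brain, 1663 to 2466 RPM in lung), and alveolar type 1 cells 6 of 24 lower (150.3 to 211 RPM in brain, 373 to 664 RPM in lung). Lung mesenchyme had 1 of 11 higher and 2 lower (62.7 to 167 RPM in brain, 132 to 224 RPM in lung), alveolar type 2 cells 1 of 10 higher (389 to 428 RPM in brain, 296 to 412 RPM in lung), and neither mural cells (9 peaks, 109.6 to 193 RPM in brain, 65.4 to 146 RPM in lung) nor leukocytes (8 peaks, 87.8 to 134 RPM in brain, 94.2 to 121 RPM in lung) had a call. No marker gene with a peak was at 0 in either tissue, and Pdgfra, Acta2, Rgs5, Tagln, Sftpc, Cd3e, Itgam, Aldh1l1, Aqp4, Mog and Olig2 were among the marker genes that had no peak.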

How the data were processed

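The authors deposited whole-number read counts per peak for 10 libraries, with 37513 peaks, 2 of them mitochondrial; the values are not normalized. The submitters' processing notes name MACS2 2.2.7.1 and Bowtie2 2.4.5, besides SAMtools, Picard and Trimmomatic 0.36, with build mm10. How peaks were merged and counted, and whether duplicates were removed or Tn5 shifts applied, is not given in the sources used here. Peaks were placed on RefSeq genes of GRCm38.p6, with start sites and upstream sequence from its promoter table.

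Counts of 37466 peaks with at least 10 reads over the libraries entered edgeR 4.0.16 under R 4.3.3, with its quasi-likelihood test (TMM normalization, a mean for each tissue-by-size group, common dispersion 0.350), with p-values adjusted by Benjamini-Hochberg over all peaks tested. The mitochondrial peaks entered the fits, except with nuclear totals, so the library totals held mitochondrial reads. SE is the absolute log2 fold divided by the square root of F. DESeq2 1.42.0, other scalings, filters, a replicate block, reaches around genes and each library left out served as alternatives. Members and lists were chosen with earlier results of these data known. Named peaks were, in each role group, those called (at most 6 a direction), the one with the highest mean RPM and the uncalled one with the lowest p; other peaks named were chosen after their values were seen.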

Additional observations from a re-analysis of the deposited data

Results flagged for a closer look

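Among 70 sets of 4 brain or 6 lung libraries examined, 12 had a highest or lowest library standing apart from the rest. Chance gives about 1 in 20 for independent, normally distributed values of equal spread. Here depth differed between libraries, some libraries had no read at a peak, and the sums share peaks. The 12 of 70 therefore cannot be read as an excess. In lung, replicate 2 at 50 nuclei was highest at Col4a3 (1:82603277, 49.9 RPM) and Col24a1 (3:145471222, 70.4 RPM) and lowest at Lamc1 (1:153332737, 14.7 RPM). Lung 50-nuclei replicate 3 was highest at Col4a2 (8:11394839, 87.6 RPM) and lowest for the summed integrin alpha (626 RPM) and integrin beta peaks (256 RPM). Lung 50-nuclei replicate 1 was highest for the summed other collagens (250.2 RPM). Lung 200-nuclei replicate 3 was the only lung library with reads at Lamb1 (12:31323546, 1.95 RPM).

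In brain, replicate 2 at 50 nuclei was lowest at the Itgb1 start (28.2 RPM) and the Col16a1 start (18.8 RPM), and it was the only brain library with reads at the uncalled Itga1 peak (13:114987772, 6.26 RPM). Brain 50-nuclei replicate 1 was highest for the sum over all members (2545 RPM).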

How the results depend on the processing

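For brain against lung averaged over sizes, 14 members were called (7.95%, against 10.2% of all peaks). The called share was 4.79% of members, against 5.96% of all peaks, with edgeR's default filter, and 14.8%, against 14.7%, with DESeq2. The count was 8 with edgeR's default filter, 26 with DESeq2 (the 14 among them), and 40 without lung 50-nuclei replicates 2 and 3; leaving out single libraries gave 3 to 29. At 50 nuclei, where none was called, DESeq2 called 5, leaving out both lung libraries 5, and leaving out single libraries 0 to 12. At 200 nuclei, where 3 were called, DESeq2 called 9, leaving out both lung libraries 28, and leaving out single libraries 0 to 15. In the comparisons of size and for the dependence of tissue on size, every alternative run gave 0 members. DESeq2's size factors in edgeR, nuclear totals, no filter, and reaches of 0 or 1000 bp or only 1 gene kept the averaged count within 1.5 times. The cause of the other changes was not tested. Most counts by size in the alternative runs lack a share over all peaks and cannot be read as particular to the members.

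Deviations of same-numbered libraries correlated at -0.03 to 0.02 over 13 pairs, and those of differently numbered libraries at -0.03 to 0.03 over 24. Low read counts pull such correlations toward 0, and the 2 libraries of a brain group deviate as mirror images. Whether the replicate numbers pair the libraries therefore cannot be decided from them. With the replicate block 9 members were called (5.11%, against 5.45% of all peaks), 2 higher and 7 lower, and 8 of them were among the 14. The remaining call was the Col24a1 peak, lower in brain (log2 fold -4.50, edgeR adjusted p = 0.0341). The calls at Itgb8, Itgb5, Itgb6, Lama5, Col4a3 and 1 Itga2 peak did not pass (adjusted p 0.0812 to 0.141). The log2 fold at the Itgb1 start turned to 0.035 with DESeq2's size factors in edgeR, 0.012 with the default filter, 0.029 with DESeq2 and 0.12 without both lung libraries, and leaving out single libraries gave -0.37 to 0.30. At the Col16a1 start leaving out single libraries gave -0.092, without brain 50-nuclei replicate 1, to 0.46. No called peak changed sign. Low brain depth limits calls of peaks lower in brain, since 3 reads there are 6.44 to 9.40 RPM.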
